A study of Mus musculus with 6 samples.

Results

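The genes of the nuclear pore and of nuclear transport were followed in mouse intestinal organoids in which an active form of the coactivator YAP was switched on. They were chosen by symbol, as numbered nucleoporins (Nup), importins (Ipo), exportins (Xpo and Cse1l), importin alpha and beta genes (Kpna and Kpnb1), transportins (Tnpo), Ranbp1, Ranbp2 and symbols built on these. This rule was set with earlier results of these data known. Of the 24594 genes in the count table, 48 fitted, and 46 of them had 10 or more counts in at least 3 of the 6 libraries. All 46 also passed the expression filter of the test. The other 2 were Ranbp17, a relative of exportin 7, and Kpna7, an importin alpha gene. Ranbp17 had 0 counts in every library, which allows up to 0.303 CPM (counts scaled to library size) in a doxycycline library and up to 0.302 CPM in a control library. Kpna7 had 3, 0 and 3 counts in the doxycycline libraries and 10, 5 and 5 in the control libraries. Intervals and limits of this kind cover counting error only.

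Organoids are small epithelial structures grown in a gel, here from adult crypts of the proximal small intestine, in medium with EGF, Noggin and R-spondin1. All 6 libraries came from the genotype TetON-hYAP/H2B-mCherry, in which doxycycline turns on human YAP together with mCherry-tagged histone H2B, and per the series' design text that YAP is a constitutively active mutant. The doxycycline group (3 libraries) had 1 µg/ml for 48 h from passaging, and the control group (3 libraries) had none. All organoids carried the transgene, and YAP cannot be told apart from the drug itself. The labels do not name the promoter that drives the doxycycline-responsive activator. The growth protocol, written for the whole study, says that each sample's adult crypts were scraped from 1 individual, but no label tells which animal a library came from or whether the groups share animals. The p-values thus measure the spread between these libraries, which may be technical.

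Nuclear pores are the channels through which proteins and RNA enter and leave the nucleus. Each is built from many copies of nucleoporins that form a Y-shaped scaffold complex, an inner ring, a central channel lined with phenylalanine-glycine repeats, a cytoplasmic face, a nuclear basket and a membrane anchor. Importins carry cargo in and exportins carry it out, and both read the state of the small GTPase Ran, which is loaded with GTP in the nucleus by Rcc1 and made to hydrolyse it in the cytoplasm by Rangap1. Importin alpha proteins bind classical nuclear localisation signals and enter the nucleus with importin beta, and the exportin Cse1l returns them to the cytoplasm.

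The doxycycline libraries held 11258768 to 16803062 counts and the control libraries 8533452 to 14643817. Values are CPM on the TMM scale. Control replicate 3 stood apart. Its log2 CPM had a Pearson r of 0.916 and 0.919 with the other control libraries across genes, where those had 0.991 with each other and the doxycycline libraries 0.986 to 0.990 (genes are not independent replicates). Its deviation from the mean of the libraries also fell with transcript length, by 0.398 on the log2 scale per doubling, while the slope was 0.036 to 0.124 in the doxycycline libraries and 0.055 and 0.073 in the other control libraries. The summed level of 8 epithelial markers was 17880 to 19070 CPM with doxycycline and 4619 to 5273 CPM in controls. Krt19, Krt8 and Krt18 made up most of that sum with doxycycline (means of 8879, 4691 and 1953 CPM). Of the 8 genes 5 rose, 1 fell and 2 did not pass, where 21.7% of all genes tested rose and 23.6% fell. The one that fell was Cdx1, an intestinal transcription factor gene (16.5 CPM with doxycycline and 292.6 CPM in controls), and those that did not pass were Epcam (528.3 and 583.2 CPM) and Cdx2 (484.9 and 375 CPM). Of the defining markers of other tissues, Col1a1, Dcn and Kdr were at 0 counts in all 6 libraries, and the 6 mesenchymal markers summed to at most 0.607 CPM with doxycycline and 0.805 CPM in controls. The 4 endothelial markers summed to at most 2.26 CPM with doxycycline and 1.41 CPM in controls. Of those 4 only Tek passed the expression filter, and it rose (1.40 CPM with doxycycline and 0.427 CPM in controls). Crypt base stem cell markers summed to 43.99 to 50.32 CPM with doxycycline and 3886 to 5332 CPM in controls, and enterocyte markers to 9718 to 10390 CPM with doxycycline and 1105 to 1614 CPM in controls. Paneth cell markers summed to 31.18 to 34.77 CPM with doxycycline and 2171 to 4392 CPM in controls. Goblet cell markers summed to 0.283 to 0.708 CPM with doxycycline and 66.7 to 78.9 CPM in controls. In each of these lists 4 of 4 genes were lower past the threshold, beside 23.6% of all genes tested. The part of such shifts in cell make-up in the results on the pore was not tested, and fewer cells of a type and less RNA per cell cannot be told apart in these bulk samples.

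With doxycycline, 23 of the 46 genes fell and 2 rose, while 21 did not pass the threshold (edgeR quasi-likelihood test, adjusted p under 0.05 over 12909 genes). Scaffold, channel and membrane nucleoporins, carriers such as importin 5 and exportin 5, and the Ran-binding protein gene Ranbp1 made up the falls. The 2 that rose were Kpna6, an importin alpha gene, and Xpot, the exportin of tRNA. Of all genes tested, 23.6% fell and 21.7% rose, so the 50% of these genes that fell stood above the background and the 4.35% that rose below it. The log2 fold change was below 0 for 34 of the 46 genes, beside 53.4% of all genes tested, with a median of -0.81, beside -0.08 over all genes tested. Among the falls the log2 change ran from -0.49 to -3.07. In 27 genes every doxycycline CPM lay below every control CPM (58.7%, beside 31.3% of all genes) and in 5 genes above it (10.9%, beside 30.0%).

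Control replicate 3 changed these counts. It differed from the mean of the other control libraries by more than 1 on the log2 scale in 14 of the 46 genes (30.4%, beside 28.7% of all genes tested). Without it, 33 of the 46 genes fell (71.7%) and 5 rose (10.9%), beside 35.1% and 34.9% of all genes tested. The median without it was -0.65, beside -0.02 over all genes. All 23 genes that fell with 6 libraries also fell without it. Without doxycycline replicate 2, 14 of the 46 genes fell, and without doxycycline replicate 3 also 14 of the 46. Of all genes tested, 14.3% fell in each case. With limma-voom and library quality weights, 35 of the 46 genes fell and 6 of the 46 rose, beside 37.8% and 36.1% of all genes. With total counts as the only scaling, 31 of the 46 genes fell and 0 rose, beside 39.7% and 13.5% of all genes. The median of all genes then moved to -0.52, so each direction given here is relative to the TMM scale. With the trend with transcript length removed from each library, 26 of the 46 genes fell and 2 of the 46 rose. Of all genes, 26.1% and 25.2% did so. In every one of the 17 alternatives run, 13 genes fell. These were Nup43, Nup62, Nup85, Nup133, Nup155, Nup160, Nup205, Nup210, Ipo5, Ipo7, Ipo9, Xpo1 and Xpo5.

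**Figure D1:**
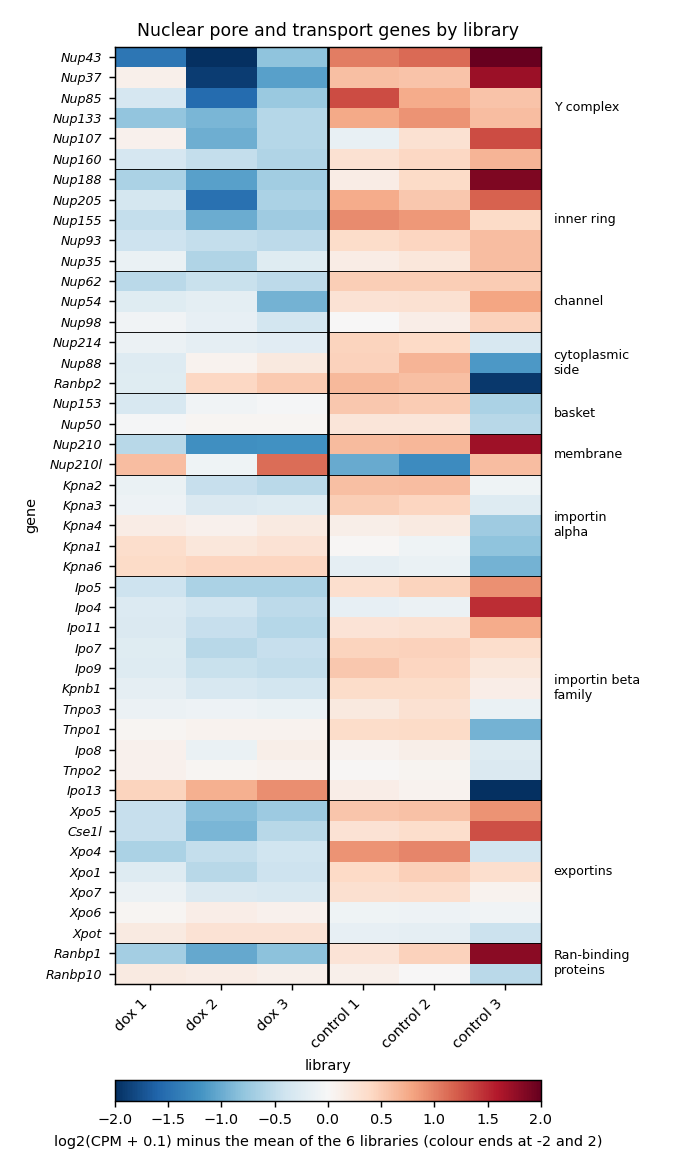
Heat map of the 46 genes (rows, by role) in the doxycycline and control libraries (columns). Colour gives log2(CPM + 0.1) minus the gene's mean over the 6 libraries, with blue low and red high. Inner ring and channel genes are blue in the doxycycline libraries and red in the controls, as are Y complex genes other than Nup107 and Nup37. In those 2 genes doxycycline replicate 1 lies slightly above the mean, and in Nup107 control replicate 1 lies below it. Control replicate 3 stands apart in genes such as Ranbp2, Ipo13, Ipo4 and Ranbp1.

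The Y complex is the outer scaffold of the pore and is needed to assemble pores. Of its 6 genes chosen by symbol, 5 fell and 1 did not pass, where 23.6% of all genes tested fell. Their median log2 fold change was -1.64. Scaffold genes with other symbols are among the 11 other pore proteins given below, of which 3 fell. Of these 11, Seh1l (log2 change -0.37, adjusted p = 0.119), Sec13 (-0.51, 0.404) and Ahctf1 (-0.08, 0.887) did not pass. Without control replicate 3, Seh1l (-0.46) and Ahctf1 (-0.41) passed in the lower direction and Sec13 (0.29) in the higher. Nup43 (chromosome 10, 7667504 to 7678886, GRCm38.p6) had 5, 3 and 12 counts in the doxycycline libraries, against 56, 46 and 76 in the control libraries. All doxycycline values lay far below all control values. Nup43 averaged 0.544 ± 0.287 CPM with doxycycline and 4.82 ± 2.45 CPM in controls (SD, n = 3 each), a log2 change of -3.07 (SE 0.546, adjusted p = 0.00425) that made it the largest fall among the 46 genes. Nup133 (chromosome 8, 123897114 to 123949265), a membrane-binding subunit at the stem of the Y, had 3.03, 2.78 and 3.53 CPM with doxycycline, against 9.07, 10.01 and 8.25 CPM in controls. Its log2 change was -1.54 (SE 0.229, adjusted p = 0.00189), with control replicate 3 close to the other controls. Nup85, in a short arm of the Y, had 3.74, 1.57 and 2.83 CPM, against 11.99, 8.01 and 7.15 CPM in controls, and fell by 1.74 (adjusted p = 0.0094). Nup160 fell by 0.95 (SE 0.186, adjusted p = 0.00576). It was the most highly read of the 6 genes, with 13.05 ± 1.16 CPM with doxycycline and 25.2 ± 3.44 CPM in controls.

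Nup37, another small subunit, had 14, 3 and 8 counts, against 35, 26 and 45 in controls, and fell by 1.92 (adjusted p = 0.042). That call was lost without doxycycline replicate 2 (adjusted p = 0.127) or 3 (0.145), without control replicate 1 (0.0537) or 2 (0.0553) and with the replicate block (0.0637). Without doxycycline replicate 1 its log2 change was -2.67. Nup107, a core subunit of the stem, had 2.63, 1.20 and 1.63 CPM with doxycycline, against 2.22, 3.08 and 6.24 CPM in controls. Its groups overlapped and it did not pass, at a log2 change of -1.06 (adjusted p = 0.121) with 6 libraries and -0.53 without control replicate 3.

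The inner ring holds the pore to the curved membrane and anchors the channel. All of its 5 genes had lower CPM in every doxycycline library than in any control library, beside 31.3% of all genes tested. The test was passed by 4 of them, where 23.6% of all genes tested fell. Nup155 (chromosome 15, 8109263 to 8159859) had 15.98, 11.1 and 13.5 CPM with doxycycline, against 43.1, 40.6 and 28.99 CPM in controls, a log2 change of -1.47 (SE 0.23, adjusted p = 0.00247). Nup205 had 5.87, 2.59 and 4.81 CPM, against 12.6, 10.9 and 17.1 CPM in controls, and fell by 1.61 (adjusted p = 0.00916). Its large relative Nup188 had 7.69, 5.55 and 7.35 CPM, against 13.2, 15.6 and 43.8 CPM in controls. The doxycycline libraries were the lowest, and control replicate 3 was far above the other controls. Nup188 fell by 1.81 (adjusted p = 0.0216) with all libraries and by 1.05 without control replicate 3 (adjusted p = 7.23e-05). Its adjusted p was 0.067, 0.087 and 0.0715 without doxycycline replicate 1, 2 and 3. Nup93, which links the ring to the channel, had 2.53, 2.41 and 2.33 CPM, against 4.39, 4.62 and 5.23 CPM in controls, and fell by 0.97 (adjusted p = 0.0161). That call was lost without doxycycline replicate 2 (0.0641) or 3 (0.0725) and with the replicate block (0.0705). Nup35 had 3.30 ± 0.55 CPM with doxycycline and 5.25 ± 0.955 CPM in controls and did not pass (adjusted p = 0.0824).

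Nup62 and Nup54 form the central channel together with Nupl1. Nupl1, which the choice by symbol left out, had 165.6, 170.5 and 168.1 CPM with doxycycline, against 155.1, 155.2 and 75.7 CPM in controls. Every doxycycline library of Nupl1 was above every control. Nupl1 did not pass, at a log2 change of 0.38 (adjusted p = 0.305) with 6 libraries and 0.13 without control replicate 3. Nup62 (chromosome 7, 44816088 to 44831836) had 99.3, 105.9 and 100.0 CPM with doxycycline, against 203.5, 203.5 and 205.6 CPM in controls. Both groups were tight, and control replicate 3 did not stand apart. The log2 change was -1.01 (SE 0.14, adjusted p = 0.00144). Nup54 had 12.03, 12.5 and 7.42 CPM, against 17.4, 17.7 and 24.9 CPM in controls, and fell by 0.91 (adjusted p = 0.032). Its adjusted p was 0.072, 0.0646 and 0.104 without doxycycline replicate 1, 2 and 3, 0.0535 without control replicate 2 and 0.0842 with the replicate block. Nup98, a mobile nucleoporin that also binds RNA export factors, had 49.4, 46.5 and 40.4 CPM, against 52.05, 56.96 and 71.5 CPM in controls. With 6 libraries Nup98 missed the threshold at -0.40 (adjusted p = 0.108), and it passed without control replicate 3 (-0.25, adjusted p = 0.0433) and with total counts.

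The genes chosen by symbol for the 2 faces of the pore were not called. Of the cytoplasmic side, where RNA and proteins leave the channel, 0 of 3 such genes passed, and of the basket, 0 of 2. These counts leave out pore proteins with other symbols, which are given below. Among those, Gle1 (log2 change -1.13) and Aaas (-1.57) fell, and the basket gene Tpr (-0.23) did not pass. Nupl2 (-0.30, adjusted p = 0.244) and Rae1 (-0.32, 0.422), of the same list, did not pass either. Without control replicate 3 neither Nupl2 (-0.15, adjusted p = 0.391) nor Rae1 (0.11, 0.489) passed. Ranbp2 (chromosome 10, 58446852 to 58494155), the giant cytoplasmic filament protein that binds Ran and has SUMO ligase activity, had 153.1, 241.5 and 259.2 CPM with doxycycline, against 284.1, 273.9 and 47.4 CPM in controls. Control replicate 3 was the lowest of all 6 libraries, and doxycycline replicate 1 was the next. Ranbp2 had a log2 change of 0.11 (SE 0.605, adjusted p = 0.899). Without control replicate 3 it was -0.34 (adjusted p = 0.287). Nup214 had 36.7, 34.98 and 33.99 CPM, against 53.9, 52.3 and 31.8 CPM in controls. Nup88, its partner, had 16.6, 21.0 and 22.7 CPM, against 27.6, 31.8 and 8.96 CPM in controls. The basket gene Nup153 had 64.3, 76.2 and 79.1 CPM, against 115.9, 114.2 and 51.3 CPM in controls, and Nup50 had 156.5, 164.2 and 164.2 CPM, against 187.5, 188.6 and 108.8 CPM in controls. In Nup214, Nup88, Nup153 and Nup50 control replicate 3 was again the lowest library and the other control libraries were the highest. Without control replicate 3 these 4 passed in the lower direction, with log2 changes of -0.58 for Nup214, -0.54 for Nup88, -0.64 for Nup153 and -0.20 for Nup50. The transcripts of the 46 genes were long, with a median of 5060 bases, beside 3111 for all genes tested. With the length trend removed, Nup214 passed (adjusted p = 0.0116), while Nup153 (0.0532), Nup50 (0.639), Nup88 (0.831) and Ranbp2 (0.982) did not.

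Nup210 (chromosome 6, 91013067 to 91118322), a membrane-spanning nucleoporin that is absent from some cell types, had 20.5, 12.9 and 12.9 CPM with doxycycline, against 46.9, 47.8 and 97.6 CPM in controls. The doxycycline libraries were all below the controls, and control replicate 3 was the highest. Nup210 fell by 2.05 (SE 0.364, adjusted p = 0.00418), and by 1.62 without control replicate 3. Its relative Nup210l, known as a testis gene, was near the detection limit with 11, 7 and 23 counts, against 5, 3 and 11 in controls, and did not pass (adjusted p = 0.201). Without control replicate 3 the log2 change of Nup210l was 2.10 (adjusted p = 0.0102).

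**Figure D2:**
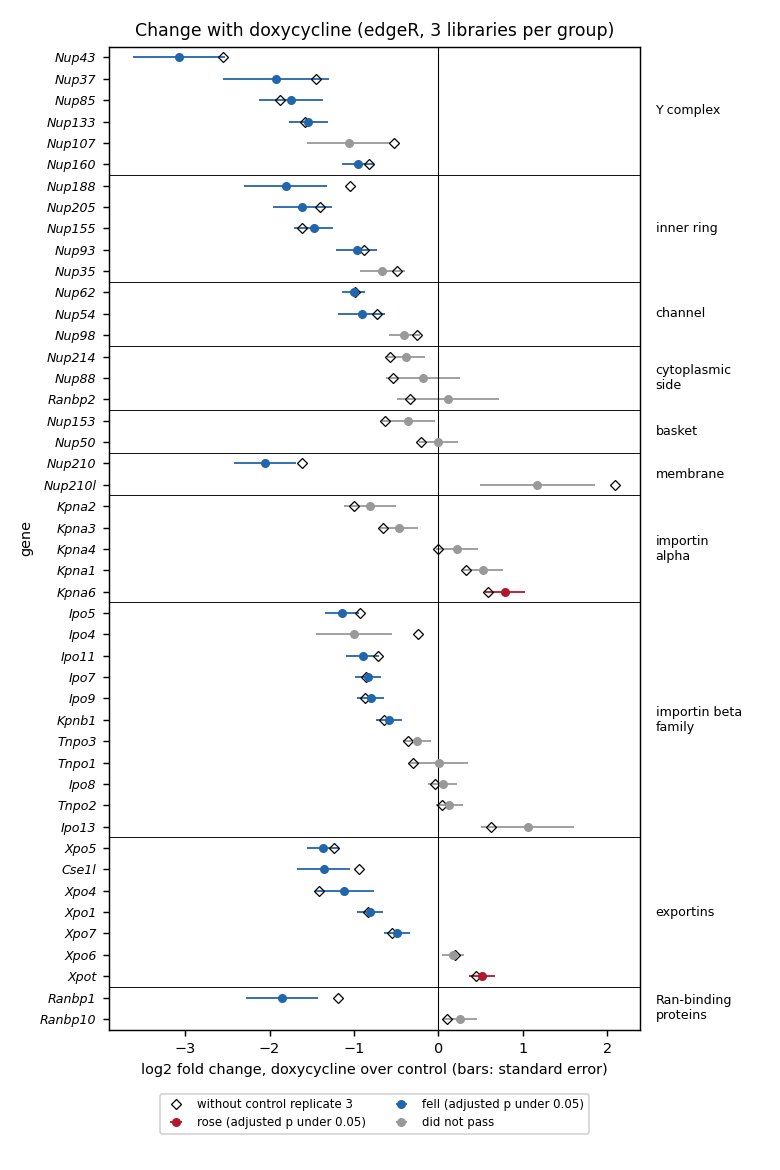
Fitted log2 fold change of doxycycline over control for the 46 genes, by role, with its standard error. Blue genes fell, red genes rose, grey genes did not pass, and open diamonds give the value without control replicate 3. Y complex and inner ring genes lie to the left (Nup43 at -3.07), and Kpna6 (0.79) and Xpot (0.51) are the red points to the right.

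The importin alpha genes did not move together. Kpna6 (chromosome 4, 129643979 to 129672767) had 200, 206.0 and 207.4 CPM with doxycycline, against 135.5, 139.9 and 79.6 CPM in controls. Every doxycycline library was above every control, and control replicate 3 was the lowest. Kpna6 rose by 0.79 (SE 0.237, adjusted p = 0.0319), and by 0.59 without control replicate 3 (adjusted p = 1.1e-06). The call was lost with total counts (log2 change 0.35, adjusted p = 0.249), with the replicate block (0.0567) and without doxycycline replicate 1 (0.0855), 2 (0.0976) or 3 (0.096). Kpna1, of the same branch of the family, had 148.0, 136.0 and 141.4 CPM, against 118.6, 109.8 and 66.4 CPM in controls, without overlap. Kpna1 missed the threshold at 0.53 (adjusted p = 0.108), but passed without control replicate 3 (0.33, adjusted p = 0.00142) and with the length trend removed (adjusted p = 0.0433).

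Kpna3 and Kpna4 form another branch. Kpna3 had 67.2, 58.9 and 59.9 CPM, against 100.7, 96.8 and 59.9 CPM in controls, and missed the threshold at -0.47 (adjusted p = 0.129). It passed without control replicate 3 (-0.66, adjusted p = 1.72e-06) and with the length trend removed (adjusted p = 0.0379). Kpna4 had 133.8, 127.4 and 136.0 CPM, against 130.8, 136.8 and 73.5 CPM in controls (adjusted p = 0.507), and its doxycycline libraries overlapped with control replicates 1 and 2. Kpna2, the importin alpha best known from dividing cells, had 29, 25 and 31 counts, against 84, 65 and 30 in controls, and missed the threshold at -0.81 (adjusted p = 0.0681). Without control replicate 3 its log2 change was -0.995 (adjusted p = 0.00488). Its transcript has 4 near-identical copies in GENCODE, of 95.2 to 99.9% identity over at least 500 bases, so its low count is uncertain.

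Shares within a library do not depend on how libraries are scaled. They were computed after the values had been seen, per kilobase of the longest coding transcript. Of the summed importin alpha level, Kpna6 made up 35.9, 38.7 and 38.0% with doxycycline, against 26.6, 27.8 and 27.0% in controls. Kpna3 made up 16.9, 15.6 and 15.4% with doxycycline, against 27.7, 27.03 and 28.5% in controls. In these shares control replicate 3 lay with the other controls, and the groups were far apart compared with their spread. Kpna1 averaged 29.5 ± 0.583% with doxycycline and 25.6 ± 0.812% in controls, Kpna4 15.7 ± 0.344% and 16.8 ± 0.758%, and Kpna2 1.26 ± 0.18% and 2.77 ± 0.0832% (SD, n = 3 each). Kpna1 and Kpna6 together held 67.04 ± 0.879% of the importin alpha level with doxycycline and 52.7 ± 0.241% in controls. No test was run on these shares. The ratio of Kpna6 to Kpna3 CPM was 2.98, 3.50 and 3.46 with doxycycline, against 1.35, 1.45 and 1.33 in controls.

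**Figure D3:**
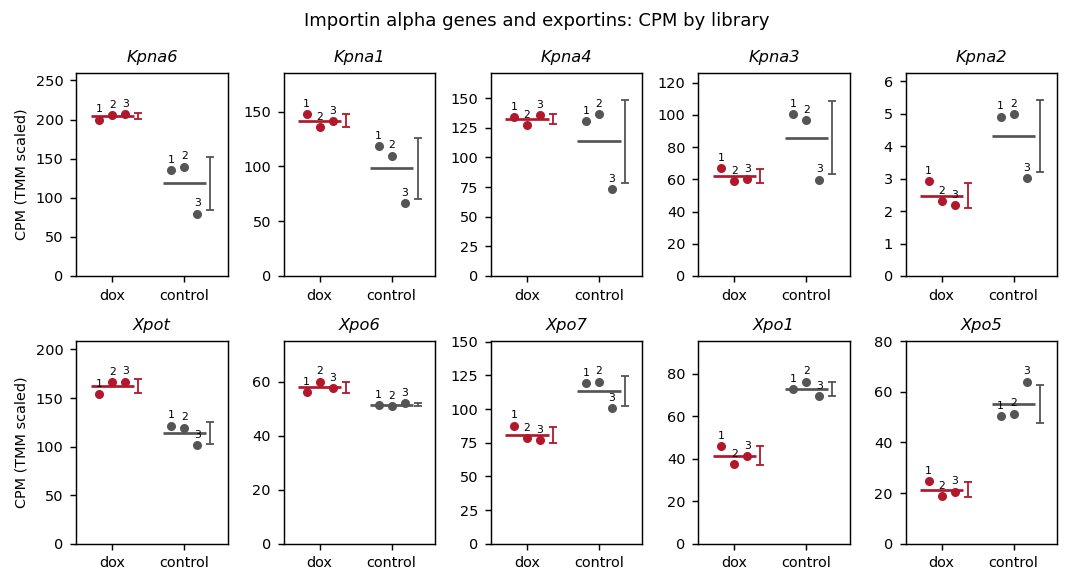
CPM of the 5 importin alpha genes with enough counts and of 5 exportin genes in each library, with doxycycline in red and control in grey. Digits are replicate numbers, lines are group means and bars are SD (n = 3). Kpna6 and Xpot lie higher with doxycycline, Xpo1, Xpo5 and Xpo7 lower, and control replicate 3 is the lowest library in Kpna6, Kpna1 and Kpna4.

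Importin beta family members carry cargo through the pore, alone or with importin alpha. Of these 11 genes, 5 fell, 0 rose and 6 did not pass, where 23.6% of all genes tested fell and 21.7% rose. Their median log2 fold change was -0.58. Kpnb1 (chromosome 11, 97159710 to 97187892), importin beta itself, had 285.1, 259.6 and 251.7 CPM with doxycycline, against 417.2, 419.9 and 355.8 CPM in controls. It fell by 0.58 (SE 0.155, adjusted p = 0.0197). Leaving out any one library other than control replicate 3 gave an adjusted p of 0.0592 to 0.103, and the replicate block gave 0.0767. Ipo5, which imports ribosomal proteins and histones, had 78.6, 67.0 and 67.1 CPM, against 131.3, 141.7 and 197.0 CPM in controls, and fell by 1.14 (SE 0.203, adjusted p = 0.00415). Ipo7, a carrier of ribosomal proteins, had 138.2, 111.7 and 119.6 CPM, against 224.5, 225.5 and 210.0 CPM in controls, and fell by 0.84 (adjusted p = 0.0048). For both genes the groups were separate. Ipo9 fell by 0.80 (adjusted p = 0.00686) and Ipo11 by 0.90 (adjusted p = 0.0098, and 0.055 without doxycycline replicate 3).

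The transportins and the close relative of Ipo7 were not called. Tnpo1, which imports RNA-binding proteins, had 302.6, 308.1 and 308.4 CPM, against 380.2, 381.8 and 152.1 CPM in controls, with control replicate 3 far below all the others (log2 change 0.0075, adjusted p = 0.988). Without that library it fell, at -0.30 (adjusted p = 6.98e-04). Tnpo2 averaged 147.1 ± 2.91 CPM with doxycycline and 134.8 ± 16.96 CPM in controls. Tnpo3, a carrier of splicing factors, averaged 70.5 ± 0.705 CPM with doxycycline and 84.2 ± 12.7 CPM in controls, and passed in the lower direction without control replicate 3 (-0.36, adjusted p = 8.54e-04) and with the length trend removed (adjusted p = 0.0494). Ipo8, the relative of Ipo7, averaged 88.3 ± 8.09 CPM with doxycycline and 85.3 ± 11.6 CPM in controls. The two-way carrier gene Ipo13 had 30.5, 36.7 and 42.8 CPM with doxycycline, against 24.6, 23.6 and 4.53 CPM in controls. Its groups did not overlap, and it missed the threshold with all libraries (log2 change 1.05, adjusted p = 0.16) but passed without control replicate 3 (0.63, adjusted p = 3.54e-04). Ipo4 had 46.8, 43.3 and 39.7 CPM, against 50.8, 52.1 and 157.4 CPM in controls (adjusted p = 0.112). Its log2 change of -1.002 was -0.24 without control replicate 3 (adjusted p = 0.0462). A GENCODE transcript of Gm49378 matches that of Ipo4 at 100% identity over 2310 bases.

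Of 7 exportin genes, 5 fell, 1 rose and 1 did not pass, where 23.6% of all genes tested fell and 21.7% rose. Xpo5 (chromosome 17, 46202811 to 46243598), which exports microRNA precursors, had 24.8, 18.8 and 20.6 CPM with doxycycline, against 50.3, 51.3 and 64.0 CPM in controls. Xpo5 fell by 1.37 (SE 0.186, adjusted p = 0.00133). Xpo1 (chromosome 11, 23255909 to 23297597), the general exporter of proteins with leucine-rich signals, had 45.9, 37.4 and 41.1 CPM, against 72.6, 76.2 and 69.6 CPM in controls. Xpo1 fell by 0.81 (SE 0.152, adjusted p = 0.00488). In both genes every doxycycline library lay well below the lowest control. Cse1l, which recycles importin alpha, had 18.0, 13.2 and 16.9 CPM, against 30.5, 31.8 and 61.4 CPM in controls, and fell by 1.36 (adjusted p = 0.0122, and 0.0585 without doxycycline replicate 2).

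Xpo4 had 35.8, 40.0 and 42.3 CPM with doxycycline, against 103.9, 109.2 and 42.7 CPM in controls, so that control replicate 3 nearly met the doxycycline range. Its fall of 1.12 (adjusted p = 0.0364) was 1.42 without control replicate 3 (adjusted p = 5.64e-11). The call was lost with any other single library left out (adjusted p = 0.091 to 0.123), with limma-voom (0.0603) and with the replicate block (0.0785). Xpo7 fell by 0.49 (adjusted p = 0.0371), a call lost with any single library other than control replicate 3 left out (0.0841 to 0.162), with no low-count filter (0.0687) and with the replicate block (0.115).

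Xpot (chromosome 10, 121587380 to 121626506) had 154.3, 166.5 and 166.9 CPM with doxycycline, against 121.5, 119.5 and 101.2 CPM in controls. The groups did not overlap. It rose by 0.51 (SE 0.153, adjusted p = 0.0304). The call was lost with total counts (log2 change 0.07, adjusted p = 0.725), with the length trend removed (0.31, adjusted p = 0.0829), with the replicate block (0.112) and with no low-count filter (0.0525). It was also lost with any single library other than control replicate 3 left out (0.0566 to 0.116), and a near-identical pseudogene transcript exists. Xpo6, the exporter of actin with profilin, had 56.03, 60.05 and 57.7 CPM, against 51.2, 50.96 and 52.04 CPM in controls. The groups lay close but apart, at a log2 change of 0.17 that missed the threshold (adjusted p = 0.335) and was -0.27 with total counts. Ratios within a library do not depend on scaling. The ratio of Xpot to Xpo5 CPM was 6.23, 8.87 and 8.11 with doxycycline, against 2.42, 2.33 and 1.58 in controls, and that of Xpo6 to Xpo1 was 1.22, 1.61 and 1.40, against 0.706, 0.669 and 0.748. These pairs were picked after the values had been seen.

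Ranbp1 (chromosome 16, 18239979 to 18248694) assists Rangap1 in GTP hydrolysis by Ran when cargo is released. It had 27.9, 21.9 and 25.2 CPM with doxycycline, against 53.98, 61.4 and 156.3 CPM in controls. All doxycycline values were below all controls, with control replicate 3 far above the others. It fell by 1.85 (SE 0.424, adjusted p = 0.0117), and by 1.19 without control replicate 3 (adjusted p = 2.25e-08). Its adjusted p was 0.056 without doxycycline replicate 2 and 0.0503 without doxycycline replicate 3. Ranbp10, which shares the name but is known as a scaffold related to Ranbp9, had 73.9 ± 2.07 CPM with doxycycline and 61.8 ± 13.7 CPM in controls and did not pass (adjusted p = 0.324).

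Per kilobase of transcript, the pore and its carriers spanned a wide range of levels. With doxycycline the highest were Kpnb1 at 45.05 CPM per kb, Nup62 at 37.4, Tnpo1 at 36.3 and Kpna6 at 35.8, and in controls these 4 genes had 67.5, 75.02, 36.05 and 20.7 CPM per kb. The highest in controls was Ranbp1, at 83.5 CPM per kb, where it had 23.1 with doxycycline. Near the low end were Y complex genes such as Nup133, at 0.536 CPM per kb with doxycycline and 1.57 in controls, and Nup43, at 0.423 and 3.75. The lowest in both groups was Nup210l, at 0.198 CPM per kb with doxycycline and 0.0952 in controls.

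Promoter windows were read from RefSeq (GRCm38.p6), from 250 bases before to 50 bases after a start site, and 35 of the 46 genes had one. Their median GC content was 65%, beside 60.7% for windows of all genes tested. Motifs were searched on both strands. The E-box CACGTG, the letters read by Myc and USF proteins, was in 8 of the 35 genes (22.9%) and in 11.7% of genes tested with a window. The E2F core TTCCCGCC was in 3 (8.57%, beside 4.71%), another E2F core, TTTGGCGC, in 0 (beside 1.10%), and the NRF1 core, a palindrome, in 4 (11.4%, beside 2.24%). The CCAAT box, searched as ATTGG and CCAATC, which overlap, was in 19 (54.3%, beside 43.0%). The TEAD core GGAATG, the letters bound by the DNA-binding partners of YAP, was in 6 (17.1%, beside 14.6%). Over all genes with a window, tested or not, the shares were 8.09% for the E-box, 2.52% and 0.585% for the E2F cores, 1.07% for NRF1, 41.1% for the CCAAT box and 16.6% for TEAD. A match is a run of letters and not a binding site. Of the 35 genes with a window 18 fell, as did 4 of 8 with the E-box, 3 of 6 with the TEAD core, 2 of 4 with the NRF1 core, 10 of 19 with the CCAAT box and 3 of 3 with the core TTCCCGCC. The last are too few to set apart from the others. The windows of these 3 genes (Ranbp1, Nup210 and Nup133) are shown as examples of genes that fell, with that of Xpot, the only gene that rose and had a window. Capitals mark the matches. They are the E2F core or its reverse complement GGCGGGAA and a CCAAT box in Ranbp1, the TEAD and E2F cores in Nup210, the E2F core in Nup133 and the E-box in Xpot.
Ranbp1, chr16:18248645-18248944, minus strand: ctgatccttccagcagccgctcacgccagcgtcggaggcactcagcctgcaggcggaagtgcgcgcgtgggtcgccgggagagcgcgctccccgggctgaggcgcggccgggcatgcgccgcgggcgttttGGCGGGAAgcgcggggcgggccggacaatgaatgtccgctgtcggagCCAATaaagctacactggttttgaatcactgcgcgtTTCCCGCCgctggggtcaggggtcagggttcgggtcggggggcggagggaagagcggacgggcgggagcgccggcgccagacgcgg
Nup210, chr6:91116777-91117076, minus strand: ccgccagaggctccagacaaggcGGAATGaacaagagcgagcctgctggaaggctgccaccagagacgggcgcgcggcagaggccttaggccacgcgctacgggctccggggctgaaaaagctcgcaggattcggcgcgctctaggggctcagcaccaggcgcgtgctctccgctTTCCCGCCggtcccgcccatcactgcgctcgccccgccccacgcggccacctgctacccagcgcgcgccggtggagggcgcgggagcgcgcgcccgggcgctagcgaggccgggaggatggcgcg
Nup133, chr8:123949216-123949515, minus strand: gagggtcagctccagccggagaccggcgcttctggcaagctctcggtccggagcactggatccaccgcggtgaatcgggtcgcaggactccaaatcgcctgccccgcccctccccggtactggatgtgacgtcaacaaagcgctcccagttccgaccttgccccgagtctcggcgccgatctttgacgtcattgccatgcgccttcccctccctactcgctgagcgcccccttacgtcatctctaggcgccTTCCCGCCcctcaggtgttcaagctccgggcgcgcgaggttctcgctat
Xpot, chr10:121626283-121626582, minus strand: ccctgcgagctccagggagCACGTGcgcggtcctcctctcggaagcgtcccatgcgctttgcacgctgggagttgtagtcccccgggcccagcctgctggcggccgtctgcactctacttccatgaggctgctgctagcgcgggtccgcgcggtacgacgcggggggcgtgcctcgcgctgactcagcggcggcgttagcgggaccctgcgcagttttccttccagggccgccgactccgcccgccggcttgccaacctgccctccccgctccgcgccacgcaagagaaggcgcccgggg

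Genes that work with these were taken from 4 lists, drawn up with earlier results of these data known. Of their 49 genes, 24 fell and 1 rose, beside 23.6% and 21.7% of all genes tested. Without doxycycline replicate 2, 12 of the 49 fell, and without doxycycline replicate 3, 14 of the 49, beside 14.3% of all genes in each case. Without control replicate 3, 36 of the 49 fell, beside 35.1% of all genes. The Ran cycle list had 6 of 10 genes that fell and 0 that rose (median log2 fold change -0.98). Ran itself had 66.04, 52.8 and 58.7 CPM with doxycycline, against 107.4, 113.2 and 353.9 CPM in controls, and fell by 1.69 (adjusted p = 0.0264). Without control replicate 3 that was 0.88 (adjusted p = 7.67e-08), and the adjusted p was 0.0787 to 0.0992 with a doxycycline library left out. Rcc1, the exchange factor of Ran, had 41.3, 35.99 and 37.5 CPM, against 92.9, 112.5 and 165.7 CPM in controls, and fell by 1.69 (SE 0.24, adjusted p = 0.00169). Rangap1 had 76.7, 60.05 and 62.8 CPM, against 129.0, 128.2 and 199.9 CPM in controls, and fell by 1.20 (adjusted p = 0.00577). Rangrf, a small Ran-binding factor, fell by 4.55 (0.238 ± 0.118 CPM with doxycycline and 5.65 ± 0.706 CPM in controls, adjusted p = 2.51e-04). It had 2, 4 and 2 counts with doxycycline, against 103, 79 and 48 in controls. The doxycycline values are near the detection limit, so the size of this fall is uncertain. Ncbp2, a subunit of the nuclear cap-binding complex, fell by 1.45 (adjusted p = 0.00132). Ran, its exchange factor, its activator and Ranbp1 thus were all lower in each doxycycline library than in any control library. Of the 10 genes of the Ran cycle list, 8 were lower without overlap, beside 31.3% of all genes tested. Nutf2 (log2 change -0.76, adjusted p = 0.21) and Snupn (-0.44, 0.317) overlapped between the groups and did not pass. Without control replicate 3, Nutf2 passed (-1.05) and Snupn did not (-0.18).

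Of 11 other pore proteins, 3 fell and 0 rose (median -0.37), a share of falls near the 23.6% of all genes tested. When control replicate 3 was left out, 7 of the 11 fell and 1 of the 11 rose, beside 35.1% and 34.9% of all genes tested. Ndc1, a membrane nucleoporin, had 16.2, 13.9 and 12.2 CPM with doxycycline, against 56.6, 54.7 and 47.4 CPM in controls, and fell by 1.91 (SE 0.18, adjusted p = 3.09e-04). Aaas fell by 1.57 (adjusted p = 0.00784), and Gle1, an activator of the last step of mRNA export, by 1.13 (adjusted p = 0.0108), a call lost without doxycycline replicate 2 (0.051) or 3 (0.0553). The basket protein gene Tpr (15 ± 2.77 CPM with doxycycline and 17.5 ± 7.85 CPM in controls) and the membrane nucleoporin gene Pom121 (128.3 ± 6.64 CPM with doxycycline and 179.1 ± 35.2 CPM in controls) did not pass. Without control replicate 3 both passed in the lower direction, with log2 changes of -0.53 and -0.62. Of 17 mRNA export genes, 8 fell and 0 rose (median -0.75), beside 23.6% and 21.7% of all genes tested. Alyref, an adaptor that loads export factors, fell by 1.53 (adjusted p = 0.0011), Thoc3, of the THO complex, by 1.07 (adjusted p = 0.00393) and Nxt1 by 2.16 (adjusted p = 0.00401). The main export receptor gene Nxf1, whose partner Nxt1 is, had 37.6 ± 5.50 CPM with doxycycline and 46.9 ± 15.8 CPM in controls and did not pass (adjusted p = 0.389, and 3.15e-04 without control replicate 3).

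The lamina lines the nuclear membrane in which pores sit. Of 11 genes of the lamina and inner membrane, 7 fell and 1 rose, beside 23.6% and 21.7% of all genes tested. Lmna, which encodes lamins A and C, had 310.5, 360.5 and 342.8 CPM with doxycycline, against 99.2, 109.8 and 85.9 CPM in controls, and rose by 1.78 (SE 0.169, adjusted p = 3.17e-04). Lmnb1, a B-type lamin gene, had 83.7, 79.4 and 83.8 CPM, against 187.3, 203.1 and 109.5 CPM in controls, and fell by 1.02 (adjusted p = 0.0147, and 0.0591 to 0.0679 with a doxycycline library left out). Lmnb2 fell by 1.11 (adjusted p = 0.00151) and the lamin B receptor gene Lbr by 1.84 (adjusted p = 2.0e-04). The ratio of Lmna to Lmnb1 CPM was 3.71, 4.54 and 4.09 with doxycycline, against 0.53, 0.541 and 0.784 in controls. This pair was also picked after the values had been seen, and its separation follows from the rise and fall just given.

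**Figure D4:**
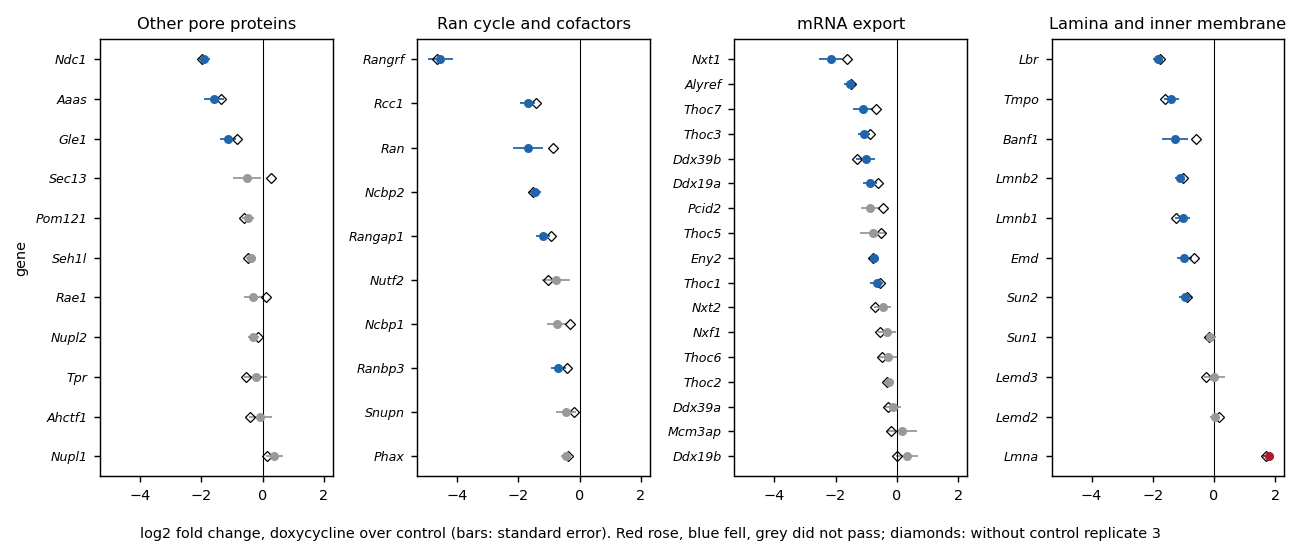
Fitted log2 fold change of doxycycline over control, with its standard error, for the genes of 4 partner lists. Lmna (1.78) is the only red point, for a gene that rose. Blue points are genes that fell, such as Rangrf at -4.55, which had 2 to 4 counts per doxycycline library. Diamonds give the value without control replicate 3.

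Of 16 proliferation genes, 13 fell and 0 rose, beside 23.6% and 21.7% of all genes tested. Their summed level was 552.5 to 572.4 CPM with doxycycline and 1477 to 1791 CPM in controls. Plk1 fell by 2.47, Tyms fell by 1.99 and Ccna2 fell by 1.97. Mki67 had 222.8 ± 32.6 CPM with doxycycline and 618.9 ± 398 CPM in controls and did not pass (adjusted p = 0.0727, and 7.4e-10 without control replicate 3), and Pcna had 101.4 ± 8.97 and 99.8 ± 12.2 CPM (adjusted p = 0.921). This shift moved with the falls of the pore and Ran cycle genes, and its part in them was not tested.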

How the data were processed

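RNA-seq read counts per Entrez gene were analysed, as deposited by the authors for 6 libraries. Per the labels' protocols, RNA was taken with a column kit and libraries were made with a TruSeq RNA kit and read on a NextSeq. The submitters' processing notes name mm10. Aligner, counter, annotation and strand setting are not given in the sources used here. Counts of near-identical, overlapping and antisense genes are therefore uncertain.

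RefSeq (GRCm38.p6) gave symbols for 24570 of 24594 IDs. The other 24, with 2.88 to 4.43% of counts, stayed in the library sizes. The 12909 genes kept by filterByExpr were scaled by TMM and tested with the robust quasi-likelihood test of edgeR 4.0.16 (R 4.3.3), Benjamini-Hochberg adjusted over all genes, with a threshold of 0.05. "Rose" and "fell" mean past it. The fits were tested on simulated data with the spread of the doxycycline libraries. Those data held no length trend and no library that stood apart as control replicate 3 did, so they do not show how the fits handle it. Transcript lengths and near-identical copies came from GENCODE M21, the copies by megablast at 95% identity over 500 bases or more, which found at least one for 7 of the 48 genes (Ipo4, Kpna2, Nup35, Nup54, Tnpo1, Xpo4 and Xpot).

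All members with enough counts could be named. Full statistics went to those of smallest adjusted p in each role, to members that rose or went against their role, and to the most highly read. In the partner lists they went to the 3 smallest adjusted p and 10 fixed genes. The members, lists and rules were chosen with earlier results of these data known. Other settings tried were total counts, RLE factors, TMM computed without the 20 highest genes, 2 other low-count filters, DESeq2 1.42.0, limma-voom (limma 3.58.1) with and without library quality weights, the replicate number as a block, removal of a length trend, each library left out, and a threshold of 0.01. The planned description of protein sequences was not used here. The immune marker list is not reported here.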

Additional observations from a re-analysis of the deposited data

How the results depend on the processing

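Of 782 values of single members under the alternatives, 650 kept direction and side of the threshold, 65 lost the call, 39 gained it and 28 changed sign. The number of members that fell (23) was 35 with limma-voom and library quality weights, 14 at a threshold of 0.01 and 14 to 33 with 1 library left out. The number that rose (2) was 0 with total counts, 1 with no low-count filter, 6 with quality weights, 0 at 0.01 and 0 to 5 with 1 library left out. The members' median (-0.81) was -1.25 with total counts, -0.71 with quality weights and -0.88 to -0.65 with 1 library left out. Of all genes, 2800 rose and 3050 fell; with total counts 1747 and 5131, with quality weights 4665 and 4875, at 0.01 1780 and 1697, and with 1 library left out 1945 to 4632 and 1888 to 4654. Partner genes that fell (24) numbered 13 at 0.01 and 12 to 36 with 1 library left out, and those that rose (1) 1 to 2. The causes of these shifts were not tested.

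The signs that changed belonged to genes that were not called with all libraries. With total counts the log2 change was -0.34 for Ranbp2, -0.27 for Xpo6, -0.22 for Kpna4, -0.39 for Ipo8, -0.44 for Tnpo1, -0.32 for Tnpo2, -0.19 for Ranbp10 and -0.42 for Pcna. With quality weights it was -0.24 for Ranbp2, -0.0098 for Kpna4, -0.076 for Ipo8 and -0.29 for Tnpo1, of which Tnpo1 passed. With the length trend removed it was -0.11 for Ipo8 and -0.15 for Tnpo1. Nup50 (-1e-04) was 0.024 with RLE factors, 0.001 with TMM without the 20 highest genes, 0.0073 with no filter, 0.024 with DESeq2 and 0.044 with limma-voom. With 1 library left out the ranges were -0.2035 to 0.13 for Nup50, -0.54 to 0.13 for Nup88, -0.34 to 0.45 for Ranbp2, -3e-04 to 0.38 for Kpna4, -0.043 to 0.13 for Ipo8, -0.30 to 0.21 for Tnpo1 and -0.039 to 0.14 for Pcna.

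The labels do not state that replicate numbers pair the libraries, so the number was not taken as a pairing. Between libraries of the same number, the r of deviations from group means was -0.299, 0.119 and -0.187. With control replicate 3 far from the other controls, these values cannot show whether libraries were paired. With the replicate block 17 of the 46 members fell and 0 rose, while of all genes 2248 (17.4%) fell and 2261 (17.5%) rose. With that block 19 of the 49 partner genes fell, and the log2 change of Nup50 was 0.043.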
